A study of Mus musculus with 30 samples.

Results

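A set of 10 genes of fibroblast growth factor (FGF) signalling was followed through neuronal progenitor cells (NPCs) of 8 mouse lines. They were the ligands *Fgf4*, *Fgf5*, *Fgf8* and *Fgf15*, the receptors *Fgfr1*, *Fgfr2* and *Fgfr3*, and the feedback genes *Spry2*, *Spry4* and *Dusp6*. The members were taken by gene symbol as 10 of the 25400 genes in the table of read counts, and all 10 were among the 16582 genes with enough reads to be tested. FGF ligands are secreted proteins that bind receptor tyrosine kinases at the cell surface and switch on the RAS-ERK cascade. Sprouty proteins and the phosphatase encoded by *Dusp6* are made in response to ERK and dampen it. In mouse embryonic stem cells (ESCs), autocrine FGF4 primes cells to leave the pluripotent state, *Fgf5* marks the epiblast that follows, and FGF8 and FGF15 are patterning signals of the neural tube.

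Poly(A) RNA was sequenced at day 8 of neuronal differentiation in 24 libraries, 3 for each line. The lines were wild type (WT), *Mbd3* KO, in which the gene for MBD3, a subunit of the NuRD chromatin remodelling complex, is disrupted, and *Mbd3* KO with 1 of 6 constructs. The constructs expressed MBD3a, MBD3ΔMBD (MBD3a with its MBD domain removed), MBD2a, MBD2aΔGR (MBD2a with its glycine-arginine stretch removed), MBD2aR181C (MBD2a with a substitution in the MBD domain) or MBD2t (the truncated MBD2 isoform). All 6 construct lines therefore carry the *Mbd3* deletion and a transgene under the ubiquitous CAG promoter, which was placed by recombination at a fixed site in ESCs. Libraries of a line came from separately derived clones. The MBD2t libraries are the exception, being repeats of 1 clone, so their small spread leaves out differences between clones. The tests below nevertheless count them as separate replicates, so p-values for MBD2t do not cover differences between clones. These repeats also enter the spread estimated in the fit of all lines, and so the tests of the other lines. The point mutant is called by the name in the sample labels, R181C. The study's text numbers that residue differently, and the 3 columns of counts taken for this line carry the name R64C, so they were assigned to it as the only point mutant of MBD2a among the samples and not by an exact match of names.

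Library totals ran from 27993858 to 49392806 counts, and levels are given as CPM (counts scaled to a common library size). A gene with 3 counts is at 0.107 CPM in the shallowest and at 0.0607 CPM in the deepest library. In WT, *Mbd3* had 149.0 to 156.9 CPM, whereas the *Mbd3* KO libraries had 34.3, 73.8 and 69.1 CPM, so reads on the targeted gene were fewer but not absent. *Mbd2* had 87.2, 86.3 and 67.0 CPM in the MBD2a line against 64.3 to 70.9 CPM in *Mbd3* KO, and 253 to 700.2 CPM in the other lines with an MBD2 construct. Of the libraries labelled MBD2a, 2 thus lay above the *Mbd3* KO range of *Mbd2* and 1 within it. These are RNA levels in NPCs. By Western blot of the ESC lines, the study reports equal protein levels for MBD2a and MBD2aΔGR. The label NPC was checked against a list of neural progenitor markers, of which *Sox1* was not in the table. Their summed level ran from 1686 to 2259 CPM in WT, but from 156 to 213 CPM in *Mbd3* KO, 158 to 329 CPM with MBD2a and 198 to 233 CPM with MBD2t, so these 3 lines carry the label with little of the markers. For 10 pluripotency markers the sums were 30.4 to 223 CPM in WT and 446 to 1326 CPM in *Mbd3* KO, 518 to 934 CPM for MBD2a and 745 to 918 CPM for MBD2t. In *Mbd3* KO and with MBD2t, all 10 pluripotency markers were called higher than in WT and all 11 neural progenitor markers tested were called lower, and with MBD2a these counts were 9 and 11. Markers of trophoblast, an extraembryonic lineage, moved as well. Of 10 tested, 10 were called higher than in WT in *Mbd3* KO (median log2FC of 3.18), 10 with MBD2t (3.06) and 8 with MBD2a (1.99). They summed to 148 to 308 CPM in WT libraries and to 1711 to 2272 CPM in those of *Mbd3* KO, 1413 to 1573 CPM with MBD2t and 540.5 to 2132 CPM with MBD2a, and the part of these cell type markers in the FGF changes was not tested. In RNA from whole cultures, fewer cells of a type and less RNA per cell cannot be told apart, and this applies to every value below.

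Per kilobase of exon, *Fgfr1* and *Fgfr2* were the most abundant members. *Fgfr1* averaged 22.2 CPM per kilobase over the 24 libraries, *Fgfr2* 18.8 and *Fgfr3* 8.35. *Dusp6* at 10.2 and *Spry2* at 7.27 CPM per kilobase were at the level of *Fgfr3*, and *Fgf15* followed at 1.99. *Fgf4*, *Spry4* and *Fgf5* were nearly level at 0.861, 0.854 and 0.848 CPM per kilobase, and *Fgf8* was lowest at 0.120. These means pool lines that differ. In WT alone, *Fgf4*, *Spry4* and *Fgf5* were at 0.112, 0.445 and 0.540 CPM per kilobase and *Fgfr3* at 16.4. In *Mbd3* KO, *Fgf4* was at 2.10 and *Fgfr3* at 1.44. The order of abundance was not the order of variation. *Fgfr3* spanned 17.98-fold between its lowest and highest library and *Spry4* 13.3-fold, while *Fgfr1*, *Dusp6* and *Spry2* spanned 2.33-fold, 2.41-fold and 1.87-fold. *Fgf4* ran from 0.0487 to 11.6 CPM and *Fgf8* from 0.0212 to 0.371 CPM, and no span is given for them because their lowest libraries held 2 and 1 counts.

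**Figure D1:**
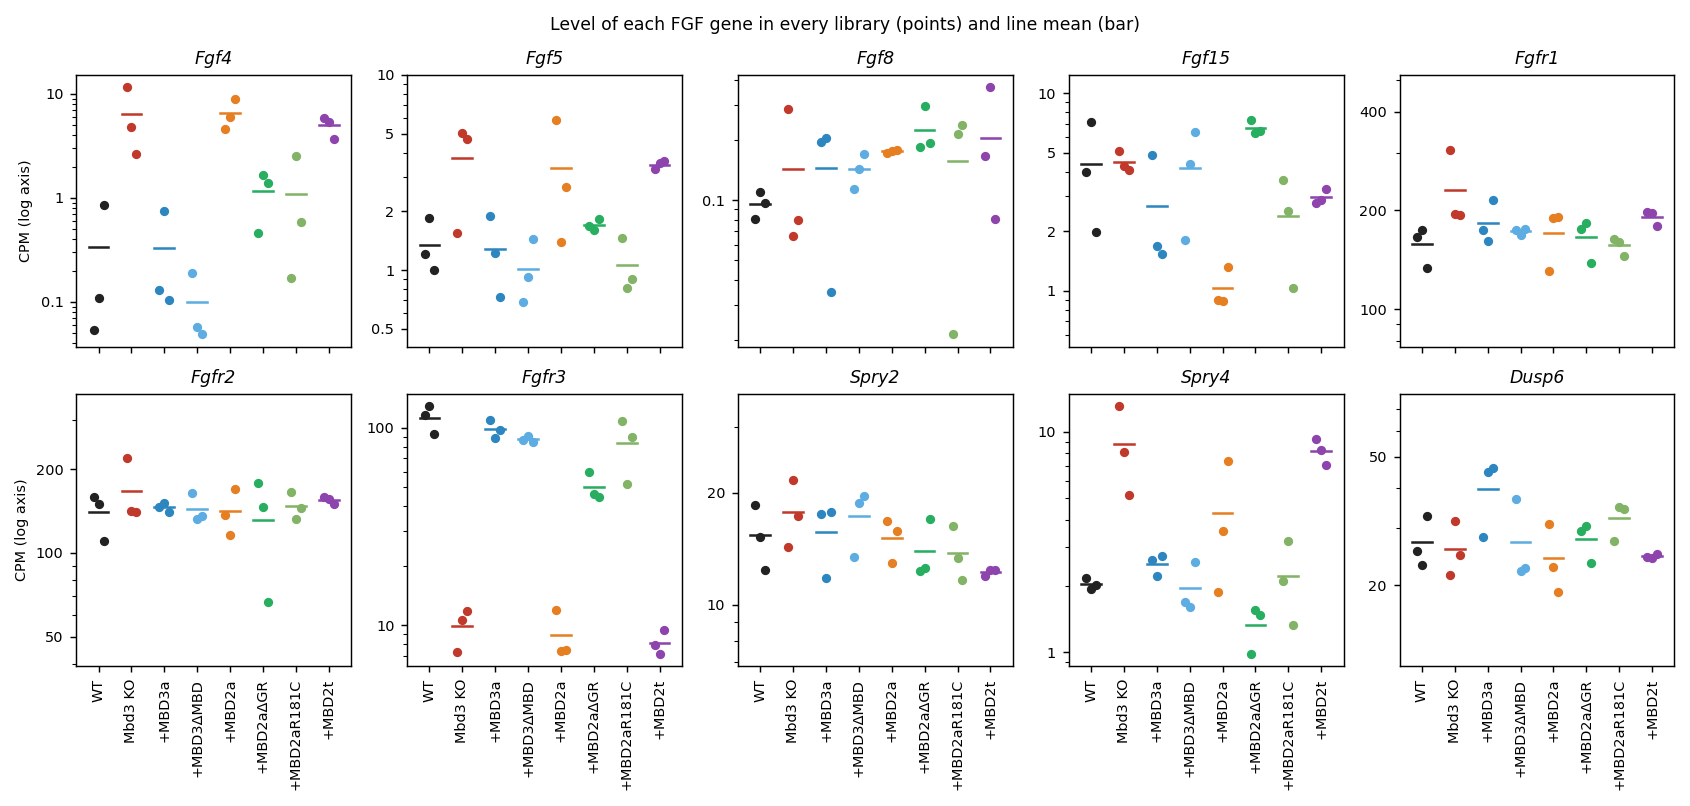
Level of each FGF gene in CPM (logarithmic axis) in every library (points) of the 8 lines, with the mean of the 3 libraries of a line as a bar. *Fgf4* and *Spry4* were high and *Fgfr3* low in *Mbd3* KO and with MBD2t, while *Fgfr1*, *Fgfr2*, *Spry2* and *Dusp6* stayed within narrow ranges.

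Differences between lines were tested for all 16582 genes in 1 fit, with edgeR's quasi-likelihood F test. Calls required a p-value under 0.05 after Benjamini-Hochberg adjustment together with a log2 fold change (log2FC) beyond 1 in size, and only genes that met both are said to have risen or fallen. In *Mbd3* KO NPCs, 4 of the 10 genes were called against WT, where 33.8% of all genes tested were called. *Fgf4*, *Fgf5* and *Spry4* rose (19.6% of all genes tested rose) and *Fgfr3* fell (14.2% fell). The median log2FC of the 10 genes was 0.37, and that of all genes tested was -0.03. The share of members called was near that of all genes, so the count does not set them apart.

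*Fgf4* (ENSMUSG00000050917.4, chromosome 7, 152047291 to 152051148 on NCBIM37, plus strand, 3 exons) encodes the ligand that ESCs themselves secrete. Its levels were 0.0537, 0.110 and 0.852 CPM in the WT libraries, which rest on 2, 4 and 35 counts. In *Mbd3* KO they were 11.6, 4.83 and 2.65 CPM, from 407, 218 and 100 counts. Every *Mbd3* KO library was above every WT library, and both lines were spread widely within themselves. The log2FC was 4.14 (standard error 0.776, adjusted p = 0.000137 in the edgeR test), a 17.7-fold difference whose 95% interval ran from 2.53 to 5.76 on the log2 scale. Without the WT library at 0.852 CPM the log2FC was 6.21, outside this interval, and without the *Mbd3* KO library at 11.6 CPM it was 3.40, so the size of the fold depends on single libraries while the call held without each of them.

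With MBD2a, *Fgf4* was at 4.61, 6.04 and 8.87 CPM, and with MBD2t at 5.82, 5.41 and 3.66 CPM. All 6 of these libraries lay above WT and among the *Mbd3* KO libraries. The log2FC against WT was 4.19 for MBD2a (standard error 0.776, adjusted p = 0.000171, edgeR) and 3.79 for MBD2t (standard error 0.784, adjusted p = 0.000361, edgeR). Without the WT library at 0.852 CPM these were 6.26 and 5.86. Against *Mbd3* KO, the differences of 0.05 (95% interval -1.08 to 1.17) for MBD2a and -0.35 (-1.48 to 0.78) for MBD2t were not called, and these intervals leave room for a 2-fold difference in either line.

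MBD3a had 0.130, 0.752 and 0.104 CPM of *Fgf4*, and MBD3ΔMBD had 0.191, 0.0575 and 0.0487 CPM. The MBD3ΔMBD values come from 5, 2 and 2 counts and are at the limit of what these libraries can show. Both lines overlapped WT, and both were lower than *Mbd3* KO in every library (log2FC of -4.26 and -6.10, adjusted p = 0.000235 and 3.55e-05, edgeR). Without the *Mbd3* KO library at 11.6 CPM these were -3.51 and -5.35, without the MBD3a library at 0.752 CPM the first was -5.72, and without the MBD3ΔMBD library at 0.191 CPM the second was -6.82, all still called.

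The variants MBD2aΔGR and MBD2aR181C lay between these extremes. *Fgf4* was at 0.461, 1.67 and 1.39 CPM with MBD2aΔGR and at 0.170, 2.52 and 0.582 CPM with MBD2aR181C. Every library of both was below every MBD2a library, with log2FC of -2.47 and -2.64 against MBD2a (adjusted p = 0.00634 and 0.00234, edgeR). Without the MBD2aR181C library at 2.52 CPM the second was -4.20. Against WT, with which both overlapped, the log2FC of 1.72 (95% interval -0.25 to 3.70) and 1.55 (-0.43 to 3.53) were not called. In order of mean level the lines were MBD2a, *Mbd3* KO, MBD2t, MBD2aΔGR, MBD2aR181C, WT, MBD3a and MBD3ΔMBD, and the only neighbours whose libraries did not overlap were MBD2t and MBD2aΔGR.

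In 7 of the 8 lines the library with the most *Fgf4* also had the highest summed level of the pluripotency markers, and in 5 lines all 3 libraries came in the same order. The WT library with 0.852 CPM of *Fgf4* had a summed marker level of 223 CPM, with 38.7 CPM of *Pou5f1* and 30.7 CPM of *Nanog*, against sums of 30.4 and 54.0 CPM in the other WT libraries. The MBD3a library with 0.752 CPM had 178 CPM, against 45.8 and 53.5 CPM. The MBD2aR181C library with 2.52 CPM had 445 CPM, against 37.5 and 168 CPM. Within *Mbd3* KO, the sums of 1326, 719 and 446 CPM came in the order of *Fgf4*. MBD2aΔGR was the exception for the highest library, since its library with a sum of 446 CPM had 1.39 CPM of *Fgf4* and that with 251 CPM had 1.67 CPM. In MBD3ΔMBD the libraries with sums of 29.9 and 36.2 CPM had 0.0575 and 0.0487 CPM of *Fgf4*, each from 2 counts. Their part in the differences between lines was not tested.

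**Figure D2:**
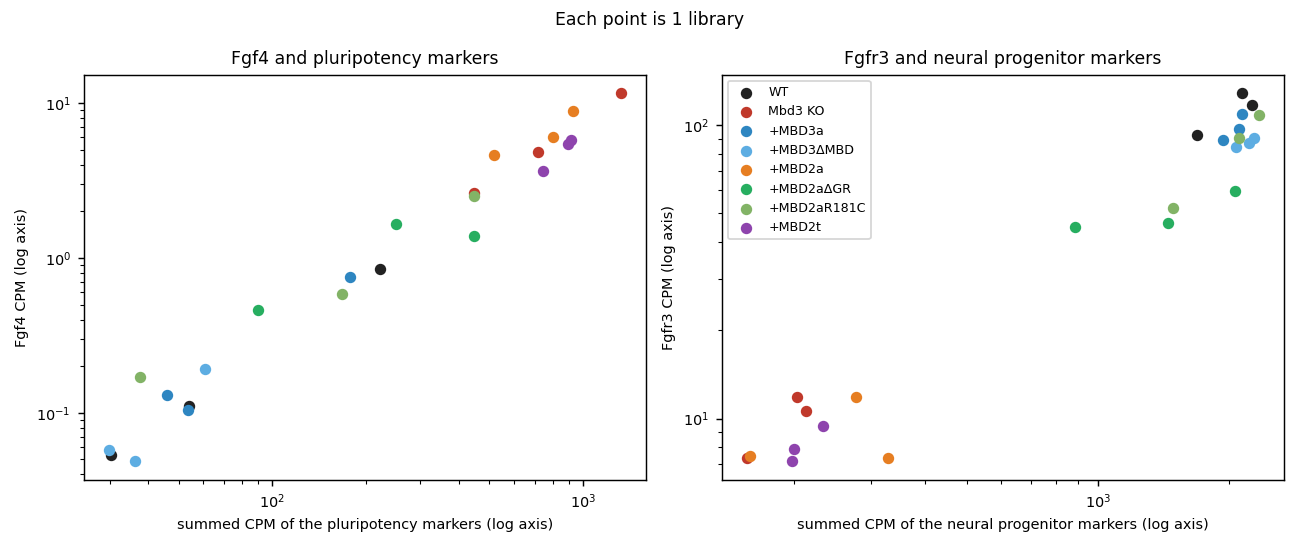
*Fgf4* against the summed level of 10 pluripotency markers (left) and *Fgfr3* against that of the neural progenitor markers (right), in CPM on logarithmic axes, with 1 point per library coloured by line. Libraries high in *Fgf4* were high in the pluripotency markers, and the 9 libraries of *Mbd3* KO, MBD2a and MBD2t lay apart at low *Fgfr3* and low neural progenitor markers.

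*Fgf5* (chromosome 5, 98683203 to 98706049, plus strand) encodes a ligand of the primed epiblast. WT had 1.21, 1.84 and 0.998 CPM and *Mbd3* KO 1.54, 5.05 and 4.71 CPM, so 1 *Mbd3* KO library lay within the WT range. It rose by a log2FC of 1.50 (standard error 0.462, adjusted p = 0.00888, edgeR), a call that was lost when the *Mbd3* KO library with 5.05 CPM was left out (log2FC of 1.23, adjusted p = 0.053, edgeR). MBD2a, with 5.90, 1.39 and 2.68 CPM, also overlapped WT (log2FC of 1.30, adjusted p = 0.0248, edgeR), and this call was lost without the MBD2a library at 5.90 CPM (0.62, adjusted p = 0.274) and without the WT libraries at 1.21 or 0.998 CPM (1.23 and 1.12, adjusted p = 0.0741 and 0.0841, edgeR). MBD2t had 3.29, 3.53 and 3.60 CPM, all above WT (log2FC of 1.37, adjusted p = 0.0156, edgeR), and leaving out the same WT libraries ended this call too (1.29 and 1.18, adjusted p = 0.0536 and 0.0614, edgeR). The other 4 lines lay between 0.688 and 1.89 CPM. Primitive endoderm markers summed to 3677 and 4122 CPM in the MBD2a libraries with 5.90 and 2.68 CPM of *Fgf5*. They summed to 889 CPM in that with 1.39 CPM, and their part was not tested.

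*Fgf15* (chromosome 7, 152082437 to 152086858, plus strand) lies next to *Fgf4* in the genome and did not follow it. Its levels were 3.97, 7.12 and 1.97 CPM in WT and 5.12, 4.27 and 4.07 CPM in *Mbd3* KO, with a log2FC of 0.05 (95% interval -0.91 to 1.01). In the MBD2a line *Fgf15* was at 0.892, 0.884 and 1.33 CPM, below every library of WT and of *Mbd3* KO. It fell by 2.05 on the log2 scale against WT (standard error 0.546, adjusted p = 0.00386, edgeR) and by 2.10 against *Mbd3* KO (standard error 0.544, adjusted p = 0.0193, edgeR). The call against *Mbd3* KO was lost without either MBD2a library under 1 CPM (log2FC of -2.01 and -2.00, edgeR's adjusted p = 0.0815 and 0.092). The 3 MBD2aΔGR libraries, at 7.31, 6.28 and 6.45 CPM, were the most even of the high values, and their log2FC against MBD2a was 2.68 (standard error 0.535, adjusted p = 0.000971, edgeR). MBD2t at 2.79, 2.89 and 3.28 CPM also lay above MBD2a without overlap, but its log2FC of 1.52 was not called (adjusted p = 0.117, edgeR). An exon of the model Gm17685 on the opposite strand shares 478 bases with *Fgf15*, and the study does not state whether strand was used in counting, so these reads are less certain.

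*Fgf8* (chromosome 19, 45811288 to 45817405, minus strand) encodes a signal of the midbrain-hindbrain boundary. It had between 1 and 14 counts in every library, or 0.0212 to 0.371 CPM. WT had 3, 4 and 4 counts and *Mbd3* KO 10, 3 and 3 counts. Differences in *Fgf8* were not detectable at this depth.

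Of the receptors, *Fgfr3* (chromosome 5, 34064373 to 34079716, plus strand, with no overlapping gene) was the member with the clearest separation of lines. FGFR3 is a receptor of ventricular zone progenitors in the developing nervous system. WT libraries had 117, 129 and 92.9 CPM and *Mbd3* KO libraries 7.35, 10.6 and 11.8 CPM. MBD2a was at 11.9, 7.37 and 7.44 CPM and MBD2t at 7.90, 7.16 and 9.40 CPM. All 9 libraries of these lines lay far below the lowest WT library. *Fgfr3* fell by 3.50 on the log2 scale in *Mbd3* KO (standard error 0.252, adjusted p = 1e-08), by 3.67 with MBD2a (standard error 0.255, adjusted p = 9.11e-08) and by 3.79 with MBD2t (standard error 0.256, adjusted p = 5.25e-09, all in the edgeR test). The p-value for MBD2t treats repeats of the same clone as replicates. Between *Mbd3* KO and MBD2a the difference was -0.16 (95% interval -0.67 to 0.35), and between *Mbd3* KO and MBD2t it was -0.28 (-0.79 to 0.22).

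MBD3a kept *Fgfr3* at 109, 89.1 and 97.1 CPM and MBD3ΔMBD at 87.0, 90.7 and 84.3 CPM. The MBD3ΔMBD libraries were all just below WT, with an uncalled log2FC of -0.37 (95% interval -0.84 to 0.10). MBD2aΔGR was intermediate at 59.7, 46.4 and 44.8 CPM, below every WT library and above every *Mbd3* KO library. It fell by 1.16 against WT (standard error 0.229, adjusted p = 0.00809, edgeR) and was 2.34 above *Mbd3* KO (adjusted p = 6.45e-07, edgeR). The call against WT was lost without the MBD2aΔGR library at 44.8 CPM (log2FC of -1.09, adjusted p = 0.0568, edgeR). That library had a summed neural progenitor marker level of 887 CPM, against 1446 and 2067 CPM in the other MBD2aΔGR libraries. Its primitive endoderm markers summed to 19420 CPM, where the other 23 libraries had at most 4122 CPM, and their part was not tested. MBD2aR181C was spread over 108, 52.1 and 90.3 CPM, and its lowest value came from the library with the most *Fgf4*.

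*Fgfr1* (chromosome 8, 26624126 to 26686186, plus strand) and *Fgfr2* (chromosome 7, 137305965 to 140315033, minus strand) encode the receptors with the most reads here. *Fgfr1* was at 166, 174 and 133 CPM in WT and at 305, 195 and 193 CPM in *Mbd3* KO. The *Mbd3* KO libraries were all higher, but the log2FC of 0.55 (standard error 0.173, adjusted p = 0.00993, edgeR) was under the fold threshold. *Fgfr2* had 159.5, 149.5 and 111 CPM in WT and 219.6, 142 and 140.0 CPM in *Mbd3* KO (log2FC of 0.26, 95% interval -0.27 to 0.78). In both genes the highest of all 24 libraries was the *Mbd3* KO library that was also highest in *Fgf4* and *Spry4*. The lowest *Fgfr2* value, 66.6 CPM, came from the MBD2aΔGR library with high primitive endoderm markers. Neither receptor was called in any of the 16 comparisons made. *Fgfr1* shares 761 exon bases with another model of the same name and 125 with Gm16159 on the opposite strand. The long *Fgfr2* model overlaps 41 other genes and shares 314 exon bases with *Ctbp2* on the same strand. A part of the reads of both receptors is therefore uncertain.

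Among the feedback genes, *Spry4* (chromosome 18, 38745922 to 38760922, minus strand) was the only one called. WT libraries were close together at 2.17, 1.93 and 2.02 CPM. *Mbd3* KO libraries had 13.1, 8.14 and 5.18 CPM and MBD2t libraries 9.30, 8.24 and 7.06 CPM, all above WT. *Spry4* rose by a log2FC of 2.10 in *Mbd3* KO (standard error 0.399, adjusted p = 0.000185, edgeR) and 2.00 with MBD2t (standard error 0.398, adjusted p = 0.000289, edgeR). The MBD2a libraries ran from 1.87 over 3.57 to 7.42 CPM, of which the lowest was below WT. The library at 7.42 CPM stood apart in its trophoblast markers, which summed to 2132 CPM against 577.5 and 540.5 CPM in the others. It was also the MBD2a library with *Mbd2* within the *Mbd3* KO range, at 67.0 CPM against 87.2 and 86.3 CPM. The part of these markers and of the *Mbd2* level was not tested. For MBD2a against WT, the call of *Spry4* (log2FC of 1.08, adjusted p = 0.0328, edgeR) was lost in 6 of 16 alternatives. Without the library at 7.42 CPM it was 0.42 (adjusted p = 0.404, edgeR), and without any 1 of the WT libraries it was 1.04 to 1.12 with adjusted p-values of 0.0658 to 0.0803. Without the same MBD2a library *Spry4* was called lower with MBD2a than in *Mbd3* KO (-1.71, adjusted p = 0.00483, edgeR), where all libraries gave an uncalled -1.02 (adjusted p = 0.0961, edgeR). MBD2aΔGR had the lowest mean of any line, with 0.983, 1.55 and 1.47 CPM, below every WT library, and had a log2FC of -1.69 against MBD2a (adjusted p = 0.00657, edgeR), which became -1.03 (adjusted p = 0.084) without that MBD2a library. Against WT its log2FC of -0.61 (95% interval -1.60 to 0.39) was not called.

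*Spry2* (chromosome 14, 106291166 to 106296036, minus strand) had 18.5, 15.2 and 12.4 CPM in WT and 14.3, 21.7 and 17.3 CPM in *Mbd3* KO, with a log2FC of 0.21 (95% interval -0.22 to 0.64). *Dusp6* (chromosome 10, 98725865 to 98730122, plus strand), the cytoplasmic ERK phosphatase, had 25.5, 23.2 and 32.7 CPM in WT and 21.6, 31.5 and 24.7 CPM in *Mbd3* KO, with a log2FC of -0.06 (95% interval -0.54 to 0.41). For both genes these intervals lay within 2-fold in either direction. *Dusp6* was highest with MBD3a, at 28.2, 44.7 and 46.0 CPM, where its log2FC of 0.61 against *Mbd3* KO (adjusted p = 0.0268, edgeR) stayed under the fold threshold. In the 3 lines where *Spry4* was called against WT, *Spry2* and *Dusp6* were not.

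**Figure D3:**
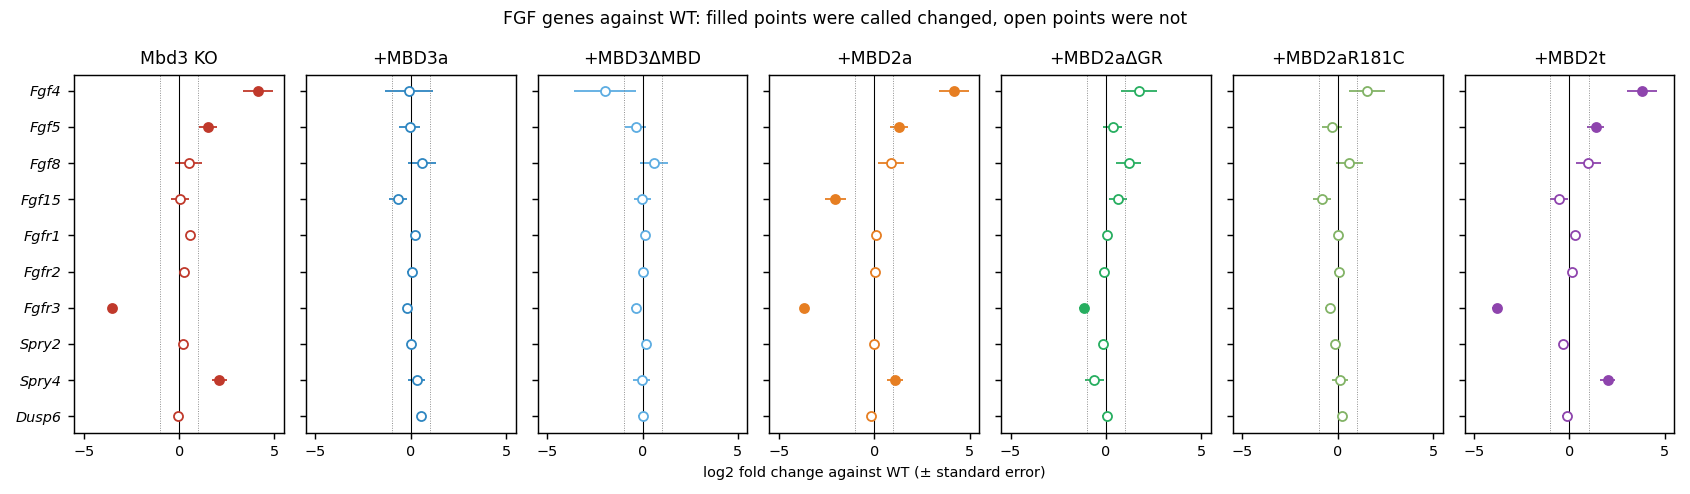
Log2 fold change of the 10 FGF genes against WT in each of the other 7 lines (points, with the standard error as a bar), where filled points were called changed and dotted lines mark log2FC of -1 and 1. *Fgf4*, *Fgf5*, *Spry4* and *Fgfr3* were filled in *Mbd3* KO, MBD2a and MBD2t, *Fgf15* in MBD2a and *Fgfr3* in MBD2aΔGR.

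Counted over the members, the lines differed as follows. Against WT, 5 of 10 were called with MBD2a (30.6% of all genes tested). *Fgf4*, *Fgf5* and *Spry4* rose (16.9% of all genes rose) and *Fgfr3* and *Fgf15* fell (13.7% fell). With MBD2t, 4 were called (33.4% of all genes), 3 higher (18.2%) and 1 lower (15.1%). The MBD2aΔGR line had 1 member called, *Fgfr3* (5.16% of all genes). None was called with MBD3a (0% of all genes), MBD3ΔMBD (0.0181%) or MBD2aR181C (0.0181%) in the edgeR test, where 1, 0 and 0 members had an unadjusted p under 0.05, and DESeq2 also called 0 in each. The median log2FC of the members was 0.06 with MBD2a, 0.21 with MBD2t and 0.05 with MBD2aΔGR, next to -0.01, -0.04 and -0.01 over all genes tested. These comparisons share the WT libraries, which by itself makes their values alike.

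Against *Mbd3* KO, the same 4 genes, *Fgf4*, *Fgf5*, *Fgfr3* and *Spry4*, were called with MBD3a (32.4% of all genes tested), MBD3ΔMBD (35.9%), MBD2aΔGR (25.2%) and MBD2aR181C (31.1%). In each, *Fgfr3* was higher and the other 3 lower than in *Mbd3* KO. The calls of *Fgf5* were the least firm. With MBD2aΔGR (log2FC of -1.15, adjusted p = 0.0436, edgeR) the call was lost without any 1 of the 3 MBD2aΔGR libraries or without the *Mbd3* KO libraries at 5.05 or 4.71 CPM, where adjusted p was 0.0675 to 0.167. With MBD3a (-1.56, adjusted p = 0.0101, edgeR) it was lost without the *Mbd3* KO library at 5.05 CPM (-1.30, adjusted p = 0.0506) or the MBD3a library at 0.729 CPM (-1.28, adjusted p = 0.0533). *Fgf4* with MBD2aΔGR (-2.42, adjusted p = 0.00476, edgeR) lost its call without the *Mbd3* KO library at 11.6 CPM (-1.67, adjusted p = 0.0518). *Fgf4* with MBD2aR181C (-2.59) was -1.84 without that library and -4.15 without the MBD2aR181C library at 2.52 CPM, and kept its call. *Fgf15* with MBD3a gained a call without the MBD3a library at 4.89 CPM (-1.50 against -0.72, adjusted p = 0.0314, edgeR). With MBD2a only *Fgf15* was called (5.25%), and with MBD2t no member was (0.0241%), by edgeR or by DESeq2, where 1 member had an unadjusted p under 0.05 in the edgeR test. That member was *Spry2*, at 11.96, 12.4 and 12.4 CPM, below every *Mbd3* KO library (log2FC of -0.54, adjusted p = 1, edgeR).

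Against the MBD2a line, MBD2aΔGR had 4 members called (18.6% of all genes). *Fgfr3* and *Fgf15* were higher and *Fgf4* and *Spry4* lower than with MBD2a. MBD2aR181C had 3 called (27.3%), with *Fgfr3* higher (log2FC of 3.23, adjusted p = 3.85e-07, edgeR) and *Fgf4* and *Fgf5* lower. *Spry4* had 2.10, 3.19 and 1.32 CPM in this line and was just outside the call (log2FC of -0.97, adjusted p = 0.0533, edgeR). It was called lower in 7 of 16 alternatives, among them RLE, upper quartile and library size scaling and DESeq2, so no contrast with MBD2aΔGR is drawn from it. The *Fgf5* call (-1.62, adjusted p = 0.00909, edgeR) was lost without the MBD2a library at 5.90 CPM (-0.94, adjusted p = 0.112). MBD2t had 0 called in the edgeR test (4.00% of all genes), where 2 members had an unadjusted p under 0.05, and 1, *Fgf15*, with DESeq2. Calls were gained without 1 library for *Fgf15* with MBD2aR181C (log2FC of 1.57, adjusted p = 0.0338, without the MBD2aR181C library at 1.03 CPM), *Fgf5* with MBD2aΔGR (-1.35, adjusted p = 0.0288, without the MBD2a library at 1.39 CPM) and *Spry4* with MBD2t (1.60, adjusted p = 0.00983, without the MBD2a library at 7.42 CPM, all in the edgeR test).

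The 250 bases upstream of the annotated start were taken from RefSeq for *Fgf4*, which rose in *Mbd3* KO, *Fgfr3*, which fell, and *Fgfr2*, which was not called. *Fgfr3* has 2 entries in the table, and the window of the first start is printed. They are shown because MBD2 binds methylated CpG, and CpG dinucleotides are in capitals. Methylation itself was not measured in these libraries. The coordinates are those of GRCm38.p6, chr7:144861136-144861385 on the plus strand for *Fgf4*, chr5:33721474-33721723 on the plus strand for *Fgfr3* and chr7:130266809-130267058 on the minus strand for *Fgfr2*.
Fgf4: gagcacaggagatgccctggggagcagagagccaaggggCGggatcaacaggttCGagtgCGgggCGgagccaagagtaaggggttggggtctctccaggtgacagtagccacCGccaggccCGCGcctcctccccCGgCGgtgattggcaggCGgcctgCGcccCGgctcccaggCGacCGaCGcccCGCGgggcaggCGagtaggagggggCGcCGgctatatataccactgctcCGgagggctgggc
Fgfr3: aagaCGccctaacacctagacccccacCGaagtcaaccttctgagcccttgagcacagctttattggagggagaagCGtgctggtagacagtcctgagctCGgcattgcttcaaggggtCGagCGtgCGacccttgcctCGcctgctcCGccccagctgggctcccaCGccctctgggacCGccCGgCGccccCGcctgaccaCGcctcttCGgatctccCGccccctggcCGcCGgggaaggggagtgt
Fgfr2: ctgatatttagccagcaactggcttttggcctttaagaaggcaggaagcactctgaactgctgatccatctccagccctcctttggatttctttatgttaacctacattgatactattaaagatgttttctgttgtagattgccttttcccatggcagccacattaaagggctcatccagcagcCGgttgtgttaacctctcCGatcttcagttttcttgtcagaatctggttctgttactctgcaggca

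The window of *Fgf4* holds 21 CpG and the printed one of *Fgfr3* 19 (24 at its other start), while that of *Fgfr2* holds 2. Over 32851 windows of this length in the RefSeq table the median was 6, with quartiles of 2 and 16. Windows of *Fgf5*, *Spry2* and *Dusp6* held 24, 23 and 16 CpG. A CpG-rich window was thus found upstream of members that rose (*Fgf4*, *Fgf5*), fell (*Fgfr3*) and were not called (*Spry2*, *Dusp6*). *Fgf8*, *Fgf15* and *Fgfr1* had no window of the required length. The window of *Spry4* was left out of this search, so nothing is said of it. A set of 7 short motifs was searched on both strands in these windows. They were an ETS motif (CCGGAAGT, found in 2.88% of all windows), the octamer (ATGCAAAT, 1.60%), a SOX motif (CATTGTT, 3.29%), TATAAA (12.4%), the AP-1 motif (TGACTCA, 4.46%), the CRE (TGACGTCA, 1.55%) and the E-box (CACGTG, 6.02%). None of these letters occurred in a window of the 6 members examined.

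Other genes of the pathway were taken from 5 lists of 60 genes in all, of which 54 were tested. In *Mbd3* KO, 15 of the 54 were called against WT, 10 higher and 5 lower. With MBD2a there were 14, 7 higher and 7 lower, and with MBD2t 14, 9 higher and 5 lower. MBD2aΔGR had 4, all higher, and MBD3a, MBD3ΔMBD and MBD2aR181C had 0 in the edgeR test and with DESeq2, where 1, 4 and 4 of the 54 had an unadjusted p under 0.05 in the edgeR test. The 4 calls with MBD2aΔGR became 0 without the MBD2aΔGR library with *Fgfr3* at 44.8 CPM or either WT library with *Fgfr3* at 117 or 129 CPM, 2 without the WT library at 92.9 CPM, and 7 without the MBD2aΔGR library with *Fgf4* at 0.461 CPM. The background for the counts of the main fit is the share of all genes given above for each comparison. For MBD2aΔGR, 856 genes were called in the main fit. Without the libraries just named, in that order, there were 121, 182, 252, 1121 and 1914.

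Among 9 other secreted ligands tested, 3 rose and 1 fell in *Mbd3* KO, with a median log2FC of 0.73. *Fgf3*, a close neighbour of *Fgf4*, rose from a mean of 0.832 to 5.60 CPM (log2FC of 2.73, adjusted p = 6.07e-06, edgeR). *Fgf20* and *Fgf17* rose by 1.44 and 1.36 from means of 0.185 and 0.114 CPM. The WT mean of *Fgf17* is near the 3-count level of 0.0607 to 0.107 CPM, so the size of its folds against WT is uncertain. *Fgf18* fell by 1.13 on the log2 scale. With MBD2a and MBD2t, *Fgf17* rose (log2FC of 1.398 and 1.459) and *Fgf18* fell (-1.39 and -1.31). *Fgf3* also rose with MBD2t (2.44) and MBD2aΔGR (1.58), and *Fgf10*, a ligand of mesenchyme, rose with MBD2aΔGR (2.29, adjusted p = 0.0485, edgeR). Both MBD2aΔGR calls were lost without its library with *Fgfr3* at 44.8 CPM. With MBD2aΔGR against WT, 6 of 9 mesenchyme markers were called lower and 0 higher. Their sums were 31.0 to 80.1 CPM against 148 to 493 CPM in WT. Of 11 primitive endoderm markers 9 were called higher and 0 lower (median log2FC of 2.62), with sums of 1174 to 19420 CPM against 771 to 953 CPM, and their part was not tested.

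Of the 4 intracellular FGF homologous factors, which are not secreted and bind sodium channels of neurons, 3 fell in *Mbd3* KO, with a list median of -1.78. Their log2FC were -2.92 for *Fgf12*, -2.21 for *Fgf13* and -1.36 for *Fgf14*. All 3 also fell with MBD2a, and *Fgf12* and *Fgf13* with MBD2t (log2FC of -3.11 and -2.22). Markers of neurons moved beside them, with a summed level of 1234 to 3063 CPM in WT and 110 to 228 CPM in *Mbd3* KO, and their part was not tested.

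Of 7 other receptors and co-receptors, *Kl*, the co-receptor of FGF23, rose in *Mbd3* KO (log2FC of 2.59), from a mean of 0.0800 to 0.512 CPM. It was also called higher with MBD2t (2.29, adjusted p = 0.000483, edgeR). Its WT mean is at the 3-count level of 0.0607 to 0.107 CPM, so the size of these folds is uncertain. The filter on low counts spans all 24 libraries, so such a gene can pass it by its level in other lines. *Fgfr4* rose with MBD2a (1.04, adjusted p = 0.0122, edgeR) and MBD2t (1.08). *Flrt2* fell with both (-1.21 and -1.64), with MBD2a only at the threshold (adjusted p = 0.05, edgeR). *Flrt1* fell with MBD2a (-2.40). In MBD2aΔGR, *Klb*, the co-receptor through which FGF15 signals, rose by a log2FC of 3.06 (adjusted p = 0.017, edgeR) and *Flrt3* by 1.06 (adjusted p = 0.049, edgeR). Both calls were lost without the MBD2aΔGR library with *Fgfr3* at 44.8 CPM, whose primitive endoderm markers summed to 19420 CPM.

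Feedback and target genes outside the members did not move in 1 direction either. Of 14 tested, 4 rose and 1 fell in *Mbd3* KO, with a median log2FC of 0.68. *Fos*, an immediate early gene, rose by 2.83 (adjusted p = 0.000136, edgeR), *Etv5*, an ETS factor induced by FGF signalling, by 2.79 (adjusted p = 0.000129, edgeR) and *Dusp5*, a nuclear ERK phosphatase, by 1.44 (adjusted p = 7.38e-07, edgeR). *Dusp4*, another nuclear phosphatase of the same family, fell by 2.34 on the log2 scale, from a mean of 158 to 31.4 CPM (adjusted p = 2.32e-05, edgeR). The rises of *Etv5* and *Fos* and the fall of *Dusp4* were called with MBD2a and MBD2t as well, and the rise of *Dusp5* with MBD2t (1.14). With MBD2a, *Dusp5* was just under the fold threshold (log2FC of 0.9997, adjusted p = 4.33e-05, edgeR). *Spred2*, an inhibitor of RAF activation, rose with MBD2a (1.13).

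Of the 20 RAS-ERK transducers, 18 were not called in *Mbd3* KO, and the median log2FC of the list was -0.01. The adaptors *Gab1* and *Shc1* rose, by 1.55 and 1.45. They were also the transducers called with MBD2a (1.51 and 1.58) and MBD2t (1.52 and 1.27).

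**Figure D4:**
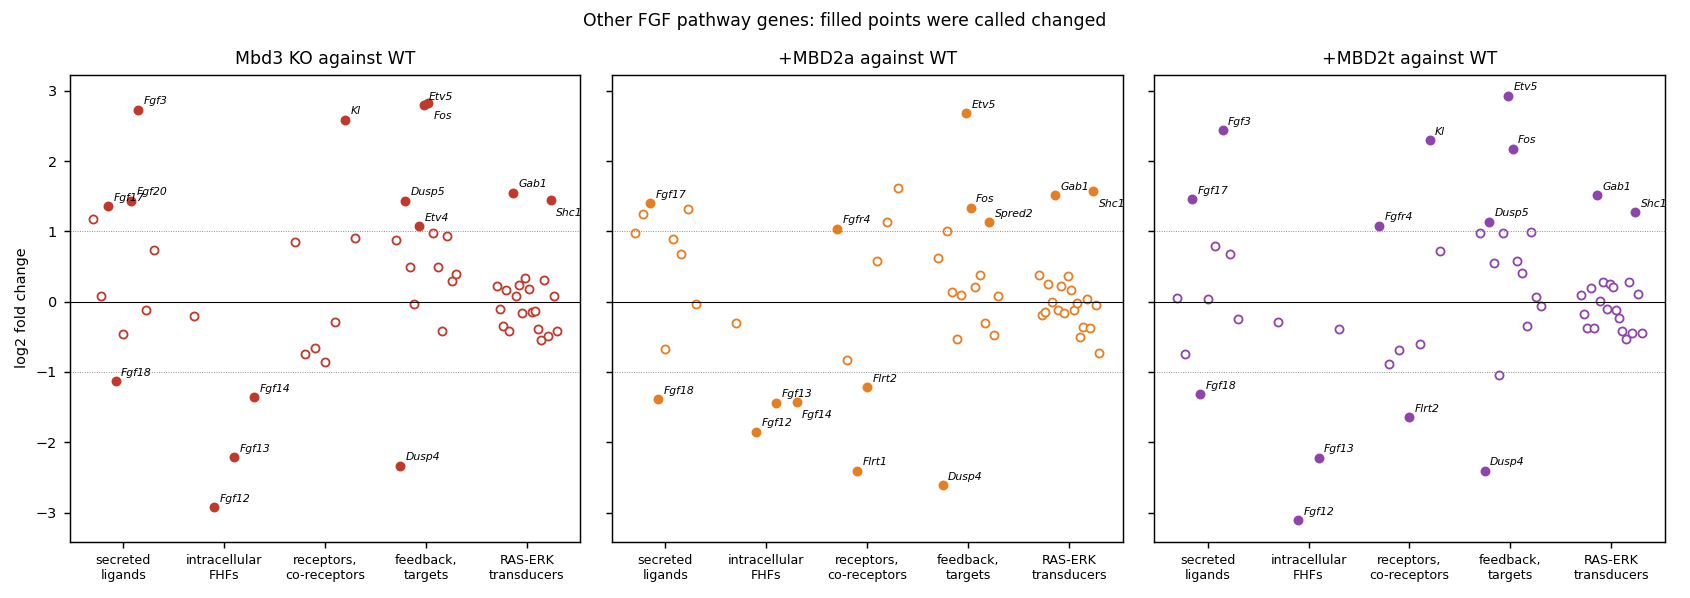
Log2 fold change against WT of the 54 other FGF pathway genes tested, by list (in alphabetical order within a list), in *Mbd3* KO, MBD2a and MBD2t, where filled and named points were called changed and dotted lines mark log2FC of -1 and 1. Within the feedback genes *Etv5* and *Fos* lay high and *Dusp4* low in all 3 lines, and of the RAS-ERK transducers *Gab1* and *Shc1* were filled.

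The genes whose log2 CPM followed each member most closely were found by Pearson's r over the 24 libraries, among the 12813 or 12814 other genes whose log2 CPM averaged at least 1. These values are descriptions, since libraries of a line share their genotype. For *Fgf4* they were *Zfp42* (r = 0.988), *Tle6* (0.988) and *Zfp979* (0.987), the first of which is on the pluripotency marker list. For *Fgfr3* they were *Map2k6* (0.986), *Ntn4* (0.985) and *Mycn* (0.985). *Spry4* was closest to *Mir675* (0.966) and *H19* (0.959), which are a microRNA and its host transcript and so not separate observations, and to *Itga9* (0.948). *Fgf5* was closest to *Mmp23* (0.921) and *Smoc2* (0.919).

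Apart from *Fgfr2*, the members that were rarely or never called had weaker partners. *Fgf15* was most like *Cited2* (r = 0.740), *Wnt7a* (0.720) and *Cnr1* (0.708), *Fgfr1* most like *Slc12a7* (0.855), *Fgfr2* most like *Slc22a23* (0.919), *Spry2* most like *Pde3a* (0.781), *Dusp6* most like *Cep89* (0.754) and *Fgf8* most like *Pole4* (0.567). Among the members themselves, *Fgf4* and *Fgfr3* had r = -0.901, *Fgfr3* and *Spry4* -0.789 and *Fgf4* and *Spry4* 0.664 over the same libraries. *Fgf4* and its neighbour *Fgf15* had r = -0.292, and *Spry4* and *Spry2* 0.0218.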

How the data were processed

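The data are the 24 RNA-seq libraries of day 8 NPCs. ChIP samples were not analysed here. Per the study's methods and the submitters' processing notes, the authors used Trim Galore on the single-end reads and mapped them by STAR on mm9 (NCBIM37). The deposited values are the authors' unnormalized counts of reads per gene from QuasR. The strand setting of the counting is not given in the sources used here. Columns were matched to lines by their group names, except the 3 named R64C, which were given to MBD2aR181C as the only MBD2a point mutant. No replicate numbers were used.

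Counts of 25400 genes were filtered with filterByExpr (16582 left), scaled by TMM and compared in edgeR 4.0.16 (R 4.3.3) by its quasi-likelihood F test, in 1 fit of all 24 libraries with the line as factor. The size of a log2 fold change over the square root of F gave its standard error, and intervals are 95%. On simulated data for *Mbd3* KO against WT, the code recovered 38.8% of 2-fold, 91% of 4-fold and 90.9% of 8-fold changes, with 5 false calls. These were 67, 67 and 66 changed genes of 16330, all with means above the floor of 3 counts. In the data 33.8% of genes were called in this comparison, so these rates need not carry over, least of all near the floor. A true 2-fold change lies at the fold threshold, so many such changes are not called. With 3 against 3 libraries an exact two-sided permutation test cannot go below p = 0.1. Log2 CPM used a prior count of 1. Replicate pairs differed by more than counting noise (chi-square per gene of 3.32 to 288 over 24 pairs), and floors of 3 counts cover counting error only. All 10 members were named in every comparison, and from the other pathway lists up to 3 rises and 3 falls per list and line. Members and lists were chosen with earlier results of these data known. Alternatives were other scalings, filters, thresholds (glmTreat), DESeq2 1.42.0, fits of fewer lines and leaving out each library. One gene that the rule for the most similar genes also names is not reported here.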

Additional observations from a re-analysis of the deposited data

How the results depend on the processing

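Over 50 log2 fold changes of the FGF genes and 794 alternatives, 731 kept their direction and their call, 44 lost the call, 19 gained it and 0 changed sign. The rises of *Fgf4* and the falls of *Fgfr3* in *Mbd3* KO, MBD2a and MBD2t, and the rises of *Spry4* in *Mbd3* KO and MBD2t, kept their call in every alternative run. No paired analysis was possible because the columns carry no replicate number. The largest shift of the median of all genes under another scaling was 0.178 (log2), for MBD3ΔMBD against *Mbd3* KO with library size only. Depth limits *Fgf8* in all lines, *Fgf4* in WT, MBD3a and MBD3ΔMBD, and *Kl* and *Fgf17* in WT.

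Members called changed to 3 (fit of only the 2 lines) and 2 (glmTreat) for MBD2a against WT, to 0 under both for MBD2aΔGR against WT, to 0 with glmTreat for MBD2a against *Mbd3* KO, to 2 with glmTreat for MBD2aΔGR against MBD2a, and to 1 (only the 2 lines, or DESeq2) for MBD2t against MBD2a. Other pathway genes called against WT without a fold threshold were 28 in *Mbd3* KO, 22 with MBD2a, 23 with MBD2t and 7 with MBD2aΔGR, and with glmTreat 6 with MBD2a, 8 with MBD2t and 0 with MBD2aΔGR. For MBD2aΔGR they were 2 with RLE scaling, upper quartile scaling, no filter, or all lines but MBD2t, and 0 with only the 2 lines. Over all genes the calls moved too. In the order of the member counts they were 4374 and 2742, 13 and 54, 190, 1061, and 572 and 680. The main fit gave 5077, 856, 871, 3080 and 664. Without a fold threshold 9990, 9197, 9911 and 1417 of 16582 genes were called, in the order of lines above. With glmTreat there were 2742, 3474 and 54. For MBD2aΔGR the settings named last gave 844, 797, 741, 472 and 13. With all lines but MBD2t, whose libraries are repeats of 1 clone, calls against WT fell to 472 from 856 for MBD2aΔGR. They fell to 5456 from 5609 in *Mbd3* KO and to 4969 from 5077 with MBD2a. The causes were not tested.

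With each library left out, members called against WT were 3 to 4 in *Mbd3* KO, 3 to 5 with MBD2a, 0 to 1 with MBD2aΔGR and 3 to 4 with MBD2t. Against *Mbd3* KO they were 3 to 5 with MBD3a, 0 to 2 with MBD2a and 3 in every case with MBD2aΔGR, and against MBD2a 3 to 5 with MBD2aΔGR, 3 to 4 with MBD2aR181C and 0 to 1 with MBD2t. Other pathway genes called against WT were 12 to 17 in *Mbd3* KO, 10 to 18 with MBD2a, 0 to 7 with MBD2aΔGR and 13 to 15 with MBD2t. Over all genes these lines had 5126 to 5846, 4351 to 5433, 121 to 1914 and 5064 to 5820 calls. Against *Mbd3* KO, all genes called were 5000 to 5414 with MBD3a, 526 to 1288 with MBD2a and 3632 to 4776 with MBD2aΔGR. Against MBD2a they were 2214 to 3847 with MBD2aΔGR, 3530 to 5257 with MBD2aR181C and 393 to 1011 with MBD2t.

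With CPM on library size only, means moved by more than 1 SD of the replicates to 3.73 (*Fgf5*), 205.5 (*Fgfr1*), 167 (*Fgfr2*), 13.2 (*Spry2*) and 26.4 (*Dusp6*) in MBD2t, 0.189 (*Fgf8*) in MBD2a, and 162 (*Fgfr1*) and 81.9 (*Fgfr3*) in MBD3ΔMBD. Ranked by Spearman's rho, the 3 most similar genes shared 0 with those by Pearson's r for *Fgf4*, *Fgf8* and *Fgfr3*, and 1 for *Fgfr1*, *Fgfr2*, *Spry2* and *Spry4*.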
